A study of Mus musculus with 16 samples.

Results

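The genes described here encode 10 peptide hormones of the pancreatic islets and the gut, read in thymic epithelial cells, which do not release them into the blood. They are Ins2 (insulin), Iapp (amylin), Gcg (proglucagon), Ppy (pancreatic polypeptide), Sst (somatostatin), Gip (gastric inhibitory polypeptide), Nts (neurotensin), Cck (cholecystokinin), Pyy (peptide YY) and Ghrl (ghrelin). The members were taken by gene symbol, and all 10 were found among the 23420 gene entries of the count and RPKM tables.

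The study sequenced the transcriptome of 3 populations sorted from the mouse thymus, in Psmb11 knockout animals (KO, genotype psmb11 -/-) and in wild-type animals (WT, psmb11 +/+). Psmb11 encodes the beta5t subunit of the thymoproteasome, a proteasome form of cortical thymic epithelium. The cortical cells (cTEC) were EpCAM+ and Ly51+, and the medullary cells (mTEC) were EpCAM+ and bound the lectin UEA1. The medullary cells were divided into those with low (mTEClo) and high (mTEChi) MHC class II. The labels give both genotypes the strain C57BL/6-derived BAC and an age of 6 to 8 weeks, whereas the extraction protocol names 14 mice aged 7 days and the series design 11 thymi. There were 2 libraries per genotype of cTEC and 3 per genotype of mTEClo and of mTEChi, 16 in all. Nothing in the labels says which animals were pooled into a library, so the p-values below measure the spread between libraries, which may be technical. In sorted bulk populations, fewer cells of a type and less RNA per cell cannot be told apart.

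Peptide hormones are made as longer precursors that are cut by prohormone convertases and stored in granules. In the pancreas, beta cells make insulin and amylin, alpha cells glucagon, delta cells somatostatin and PP cells pancreatic polypeptide. In the gut wall, scattered enteroendocrine cells make gastric inhibitory polypeptide, cholecystokinin, neurotensin and peptide YY, and ghrelin comes mainly from the stomach. Medullary thymic epithelial cells transcribe many genes of other tissues, in part through the regulators Aire and Fezf2, and each single cell expresses only some of them. Their display removes or diverts T cells that recognise the body's own proteins, and insulin is the best known example among hormones.

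The 80 bases before the RefSeq start of 7 of the genes are shown because the hormones below differ in level by population although most have the same short motif next to the start. Pyy has 2 RefSeq starts, and the window of the upstream one is shown; the window of the other has no TATA in its last 50 bases. The start sites are those of the RefSeq table for GRCm38.p6, in which 9 of the 10 genes matched and Ins2 did not. Each run is written 5′ to 3′ on the strand of its gene. The capitals mark TATA, or overlapping TATA runs, within the last 50 bases, and in Sst the cyclic AMP response element motif TGACGTCA.
Iapp, chr6:142298345-142298424, plus strand: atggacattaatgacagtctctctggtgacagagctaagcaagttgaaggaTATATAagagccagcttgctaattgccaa
Gcg, chr2:62483654-62483733, minus strand: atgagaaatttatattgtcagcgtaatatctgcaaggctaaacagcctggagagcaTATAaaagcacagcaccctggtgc
Ppy, chr11:102101320-102101399, minus strand: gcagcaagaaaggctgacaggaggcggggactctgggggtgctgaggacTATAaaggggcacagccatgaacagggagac
Sst, chr16:23890845-23890924, minus strand: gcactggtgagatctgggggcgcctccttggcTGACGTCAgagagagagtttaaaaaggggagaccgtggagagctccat
Gip, chr11:96024465-96024544, plus strand: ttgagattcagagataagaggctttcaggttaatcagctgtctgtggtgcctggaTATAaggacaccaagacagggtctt
Nts, chr10:102490419-102490498, minus strand: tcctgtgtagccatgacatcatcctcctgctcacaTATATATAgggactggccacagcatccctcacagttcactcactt
Pyy, chr11:102107833-102107912, minus strand: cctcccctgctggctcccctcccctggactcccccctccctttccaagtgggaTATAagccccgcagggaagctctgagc

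TATA, which reads the same on both strands, stood within 50 bases before a start of 6 of the 9 matched hormone genes and of 10.7% of the 27018 genes in the table. It began 24 bases before the start in Gcg, 25 in Gip, 27 in Pyy, 29 in Iapp, 31 in Ppy and 45 in Nts, and these letters were not in that window of Cck, Ghrl and Sst. TGACGTCA, which also reads the same on both strands, lay within 250 bases before the start of Sst alone among the 9, and of 1.77% of all genes. The homeodomain core TAAT or its reverse complement ATTA was found within 250 bases in 5 of 9 (Gcg, Gip, Iapp, Nts and Sst), beside 58.5% of all genes. A match of letters is a description and not a binding site.

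The libraries held 64753610 to 146707262 counts assigned to genes. Of all reads listed, 30.4% had no feature in KO cTEC replicate 1, the highest share of any library. This share was 19.9% in KO cTEC replicate 2, 22.6% and 20.8% in WT cTEC, and at most 23.7% in mTEC. Psmb11 counts were 15214 and 12756 in WT cTEC and 157 and 0 in KO cTEC, and the gene fell in KO mTEClo by 2.93 and in KO mTEChi by 3.35 on the log2 scale (adjusted p = 5.44e-04 and 2.43e-07, edgeR quasi-likelihood test). In cTEC its log2 fold change was -7.19 (SE 1.15, adjusted p = 0.0855). The cTEC KO libraries differed from each other. Replicate 2 listed 8541 gene entries at 0 against 5757 in replicate 1 and 6108 and 6938 in WT. A fit that weights libraries by their fit to the group gave the cTEC KO libraries weights of 0.162 and 0.120 against 0.597 to 3.36 for the other libraries. In a group of 2 libraries, low weights show that the 2 differ and not which of them deviates. Levels are given as CPM, which relates the count of a gene to the total of its library, scaled by trimmed means (TMM), and as RPKM where genes are set beside each other. The sum of the 12 medullary markers was 703 to 949 CPM in KO cTEC, 320 to 330 in WT cTEC, 990 to 1162 in mTEClo and 4935 to 5352 in mTEChi, and none of them was at 0 in any cTEC library.

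**Figure D1:**
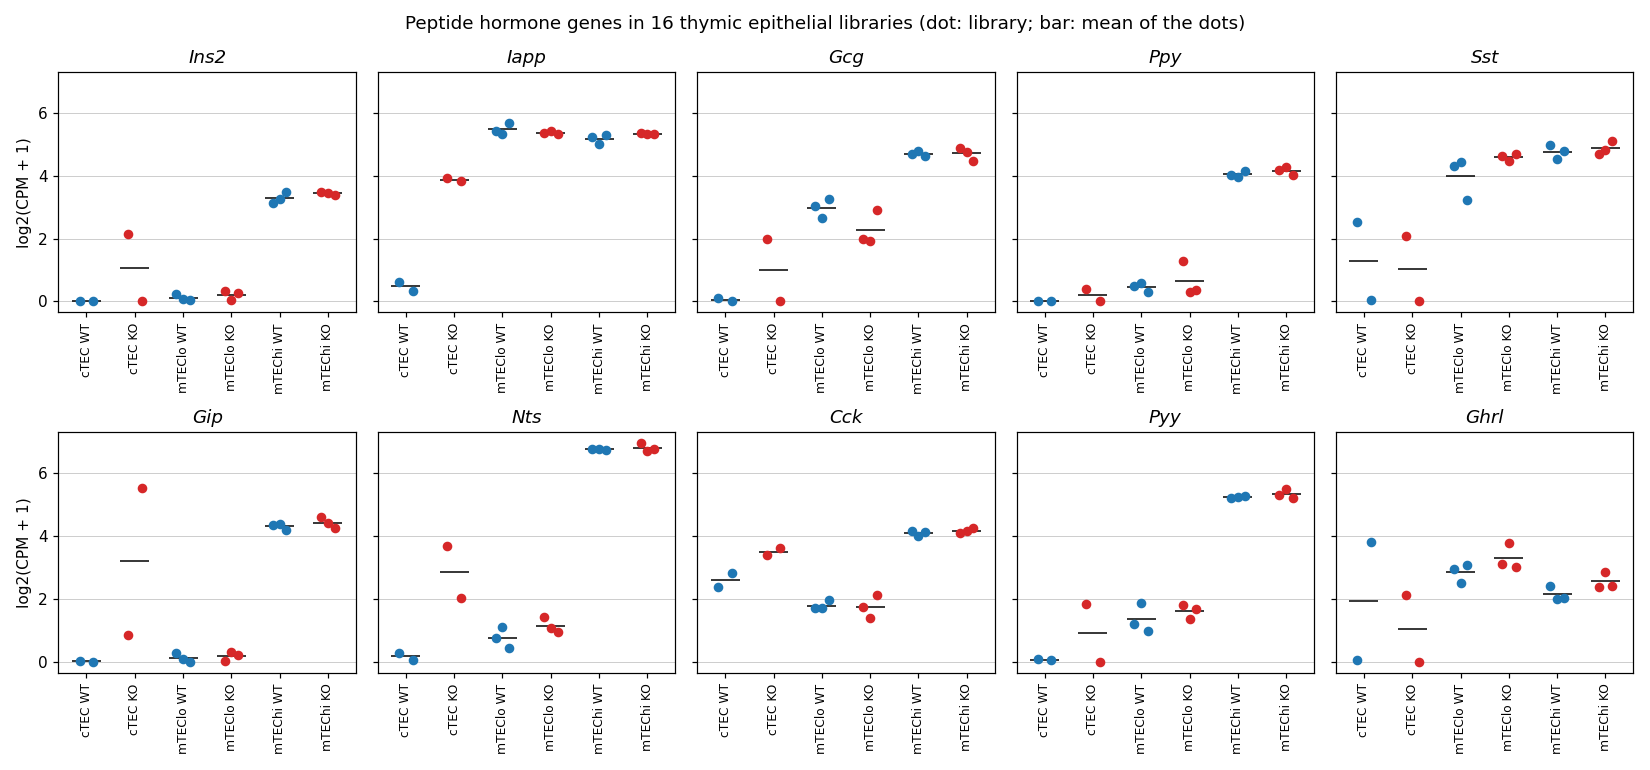
Each panel gives 1 hormone gene in the 6 groups (WT blue, KO red) as log2(CPM + 1); a dot is a library and a bar the mean of the dots. The mTEChi libraries lie close together for every gene, whereas the cTEC dots of Ins2, Gcg, Sst, Gip and Ghrl lie far apart.

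All 10 hormone genes were read in all 6 mTEChi libraries, and per length the gut hormones Nts and Pyy led. In mTEChi the hormones summed to 309 to 376 RPKM, of which Nts held 20.6% to 24.4% and Pyy 16.8% to 20.1%. In mTEClo they summed to 85.3 to 102 RPKM, and Iapp alone held 44.0% to 62.2%. In cTEC the sum was 11.3 and 26.9 RPKM with a WT genotype and 50.8 and 88.9 with a KO genotype. The leading hormone differed in each of the 4 cTEC libraries: Sst held 51.2% in WT replicate 1, Ghrl 72.9% in WT replicate 2, Iapp 27.7% in KO replicate 1 and Gip 64.9% in KO replicate 2.

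Among WT medullary cells, 8 hormone genes rose from mTEClo to mTEChi and 2 fell. All 10 were tested and passed at 0.05 (edgeR quasi-likelihood test, Benjamini-Hochberg adjusted across the whole table). Of the 19256 genes tested, 80.9% passed, 43% being higher and 37.9% lower. The median log2 fold change was 3.59 over the hormones and 0.06 over all genes tested. The groups did not overlap for any of the 10, which was so for 83.7% of all genes, 44.1% being higher and 39.5% lower. So many genes differed between mTEChi and mTEClo that passing the test is not particular to hormones, and the sizes below carry the description.

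The hormones of the beta cell differed in their order. Ins2 (chromosome 7, 142678656 to 142679708, mm10, minus strand), the mouse counterpart of the human insulin gene, had 7.84, 8.69 and 10.2 CPM in WT mTEChi and 0.171, 0.0637 and 0.0436 in WT mTEClo. The mTEClo values were 15, 6 and 4 counts, and each mTEChi library lay far above all of them. Ins2 rose by 6.59 (SE 0.33, adjusted p = 4.24e-09). Its rodent duplicate Ins1 had 18 to 42 counts in each mTEChi library and 0 in every mTEClo and cTEC library. Reads that align to both of these near-identical genes may be left out of both counts or divided between them.

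Iapp (chromosome 6, 142298425 to 142303819, plus strand), which is secreted together with insulin, did not follow Ins2. It had 36.9, 31.1 and 38.7 CPM in WT mTEChi and 42.1, 39.1 and 49.96 in WT mTEClo, so that the highest mTEChi library lay just under the lowest mTEClo library. It fell by 0.30 (SE 0.10, adjusted p = 0.0191) in mTEChi. The call was lost without mTEChi replicate 1 (adjusted p = 0.0529), without mTEChi replicate 2 (0.150) or without mTEClo replicate 3 (0.0705), and with RLE size factors in place of TMM (0.0533). In RPKM Iapp was above Ins2 in both populations, by more in mTEClo: Iapp stood at 36.7 to 45.5 beside Ins2 at 14.3 to 18.5 in WT mTEChi, and at 41.5 to 53.8 beside 0.0729 to 0.261 in WT mTEClo. Iapp lies within the opposite-strand gene Slco1a5 in GENCODE M21, and the library kit did not mark strand.

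The other islet hormones rose by unequal steps. Gcg (chromosome 2, 62474530 to 62483653, minus strand), the precursor of glucagon and of the glucagon-like peptides, had 24.7, 26.5 and 23.8 CPM in WT mTEChi and 7.28, 5.27 and 8.54 in WT mTEClo, a rise of 1.84 (SE 0.15, adjusted p = 3.31e-07). Ppy (chromosome 11, 102099931 to 102101300, minus strand) had 15.3, 14.6 and 17.0 CPM in WT mTEChi and 0.399, 0.488 and 0.240 in WT mTEClo, a rise of 5.38 (SE 0.21, adjusted p = 4.90e-10). Ppy stayed under 0.5 CPM in each WT mTEClo library, whereas Gcg was well read in both populations. Sst (chromosome 16, 23889581 to 23890844, minus strand), which encodes the inhibitor of insulin and glucagon release, had 30.4, 22.0 and 26.8 CPM in WT mTEChi and 18.7, 20.6 and 8.40 in WT mTEClo. The lowest mTEChi library was barely above the highest mTEClo library, and Sst in mTEChi rose by 0.73 (SE 0.25, adjusted p = 0.0189). Without mTEChi replicate 1 the adjusted p was 0.0517, with DESeq2 it was 0.0564, and without mTEClo replicate 3, the library at 8.40, the rise was 0.42 with an adjusted p of 0.00603.

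The gut hormones held both the steepest rise and the clearest fall. Gip (chromosome 11, 96024545 to 96030828, plus strand), an incretin of the upper intestine, had 19.3, 20.02 and 17.4 CPM in WT mTEChi against 0.205, 0.0637 and 0 in WT mTEClo, which were 18, 6 and 0 counts. It rose by 7.73 (SE 0.39, adjusted p = 4.11e-09). Nts (chromosome 10, 102481756 to 102490418, minus strand), the gene of a peptide of gut and brain that slows gut movement, had 109, 108 and 104.8 CPM in WT mTEChi against 0.672, 1.16 and 0.349 in WT mTEClo. It rose by 7.20 (SE 0.22, adjusted p = 6.48e-11), and its WT mTEChi libraries had the smallest coefficient of variation of the 10, at 2.10%. Pyy (chromosome 11, 102106676 to 102107776, minus strand), which encodes a satiety hormone of the lower intestine and lies 5375 bases from Ppy, its relative in the neuropeptide Y family, had 36.1, 36.5 and 37.8 CPM against 1.30, 2.66 and 0.982. It rose by 4.48 (SE 0.26, adjusted p = 1.54e-08). Cck (chromosome 9, 121489824 to 121495689, minus strand), which encodes the hormone that contracts the gallbladder, had 16.8, 14.9 and 16.6 CPM against 2.27, 2.27 and 2.87, a rise of 2.71 (SE 0.14, adjusted p = 4.48e-09). Ghrl (chromosome 6, 113716119 to 113719880, minus strand), the gene of the appetite hormone ghrelin, had 4.35, 2.999 and 3.08 CPM in WT mTEChi against 6.75, 4.72 and 7.54 in WT mTEClo. Every mTEClo library was above every mTEChi library, and Ghrl fell by 0.86 (SE 0.21, adjusted p = 0.00287). GENCODE M21 places Gm44033 and the end of Gm26982 on the strand opposite Ghrl.

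When all 16 libraries shared 1 estimate of the spread, in which the uneven cTEC libraries take part, 6 of the 10 passed between mTEChi and mTEClo, beside 66.5% of all genes. Those that did not were Iapp, Gcg, Sst and Ghrl, with adjusted p = 0.0942, 0.0550, 0.496 and 0.569 and the same directions. With library weights (limma-voom), where 81.7% of genes passed, Ghrl alone did not, with an adjusted p of 0.107.

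The rest of the endocrine program did not move as one, and its counts stand beside the 43% of all genes that were higher and the 37.9% that were lower. Of 21 other peptide hormone genes, 20 rose in mTEChi and none fell, among them Calca by 5.24 (SE 0.10), Calcb by 4.87 (SE 0.10), both genes of calcitonin gene-related peptides, and Pomc by 6.14 (SE 0.15), the precursor of corticotropin. Of 11 genes of prohormone processing and granules, 1 rose and 8 fell, and the granule proteins Chgb, Scg2 and Chga fell by 1.69 (SE 0.13), 1.84 (SE 0.16) and 1.63 (SE 0.15). Of 24 hormone receptor genes, 19 rose and 3 fell, with the ghrelin receptor gene Ghsr at 8.35 (SE 0.24), the glucagon-like peptide receptor gene Glp2r at 6.60 (SE 0.25) and the calcitonin receptor gene Calcr at 8.46 (SE 0.38). Of 15 endocrine transcription factor genes, 7 rose and 5 fell: Insm1 rose by 2.84 (SE 0.08), while Isl1 and Rfx6 fell by 2.25 (SE 0.06) and 1.16 (SE 0.13). The adjusted p of these 12 genes lay between 5.58e-12 and 3.95e-06. Aire rose by 6.88 (SE 0.25, adjusted p = 3.08e-10) and Fezf2 by 1.55 (SE 0.07, adjusted p = 2.20e-09), and all 12 medullary markers rose. Those with the smallest p were Cd80 at 4.32 (SE 0.07), Ccl22 at 5.46 (SE 0.12) and Cd40 at 3.16 (SE 0.07). The tuft cell markers went the other way, 4 of 4 falling, with Dclk1 down by 2.91 (SE 0.10).

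Against WT cTEC, 4 hormone genes were higher in WT mTEClo and 1 was lower. The filter on low counts left 8 of the 10 to test, Ins2 and Gip being below it, and 44.9% of 17213 genes tested passed, 24.1% being higher and 20.9% lower. The groups did not overlap for 7 of these 8, beside 64.9% of genes, 39% being higher and 25.9% lower. This comparison and the next use the same WT cTEC libraries, and both share WT medullary libraries with the one above. Iapp, at 0.537 and 0.261 CPM in WT cTEC, was higher in mTEClo by 6.71 (SE 0.27, adjusted p = 9.44e-07). Gcg, with 7 and 0 counts in WT cTEC, was higher by 7.39 (SE 0.71, adjusted p = 8.19e-05), or by a fitted 12.31 without WT cTEC replicate 1, which leaves it at 0 in cTEC, and Pyy, with 6 and 3 counts, by 4.94 (SE 0.76, adjusted p = 0.00110). Ppy had 0 counts in both WT cTEC libraries and was at least 22.7-fold higher in mTEClo, taking 3 counts over the group as the floor (adjusted p = 0.00577).

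Cck was the exception, lower in mTEClo than in WT cTEC. Its WT cTEC libraries had 4.23 and 6.03 CPM, above all 3 mTEClo libraries, and the difference was -1.13 (SE 0.27, adjusted p = 0.00957). Sst, Nts and Ghrl did not pass, with log2 fold changes of 2.65 (SE 1.10), 2.36 (SE 0.93) and -0.15 (SE 1.21) and adjusted p of 0.0843, 0.0716 and 0.935. These values moved with single cTEC libraries. Without WT cTEC replicate 1, Sst stood at 8.77 (adjusted p = 7.88e-10), Nts at 3.93 (adjusted p = 0.00196) and Ghrl at -1.14 (adjusted p = 7.59e-05). Without WT cTEC replicate 2, Sst stood at 1.67 (adjusted p = 2.30e-04), Nts at 1.64 (adjusted p = 0.0696) and Ghrl at 7.46 (adjusted p = 3.48e-10). A lone cTEC library is assumed there to vary as the mTEClo libraries do.

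In WT mTEChi, 9 of 10 tested hormone genes were higher than in WT cTEC, beside 74.3% of 19634 genes passing in either direction and 43.5% being higher. The libraries of those 9 did not overlap, which was so for 84.8% of all genes, 49.4% being higher and 35.4% lower. Ins2 was at least 530-fold higher and Ppy at least 929-fold, both having 0 counts in WT cTEC. Gip, with 5886 counts against 2, had a ratio of 1740 (95% counting interval 481 to 14400). Such intervals and floors cover counting error only, since duplicate reads are not independent molecules. Nts was higher by 9.65 (SE 0.31), Pyy by 9.49 (SE 0.22), Gcg by 9.29 (SE 0.51), Iapp by 6.47 (SE 0.30) and Cck by 1.65 (SE 0.19), with adjusted p from 5.91e-07 to 2.98e-04. Without WT cTEC replicate 1 the fitted value of Gcg was 14.28, again against 0 counts. Sst was higher by 3.45 (SE 1.18, adjusted p = 0.0340), and that call was lost without mTEChi replicate 1, 2 or 3 (adjusted p = 0.110, 0.0912 and 0.114) and with DESeq2 (0.0527). Without WT cTEC replicate 1 the difference of Sst was 9.61, and without replicate 2 it was 2.46, each with a lone cTEC library. Ghrl was at -0.93 (SE 1.40, adjusted p = 0.566), at 6.65 without WT cTEC replicate 2 and at -1.91 without replicate 1. With the bounds in place of the fitted values of Ins2 and Ppy, the median over the 10 was 9.17, beside 0.24 over all genes tested.

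The loss of Psmb11 was not followed by a hormone change that passed the test in either medullary population. In mTEClo, 0 of 10 passed, beside 0.00586% of 17073 genes tested, and in mTEChi 0 of 10, beside 0.0051% of 19614. The gene that passed in each was Psmb11 itself. At an unadjusted p under 0.05 there were 3 hormones in mTEClo among 2141 genes (Gcg, Sst and Ghrl) and 1 in mTEChi among 822 (Ghrl), and neither DESeq2 nor limma-voom called a hormone. Those tools called 1.86% and 0.303% of genes in mTEClo and 0.0357% and 0.0149% in mTEChi.

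In KO mTEChi the values stayed near WT. Iapp had 40.3, 39.7 and 38.9 CPM in KO, all just above the WT libraries, a difference of 0.15 (SE 0.08, adjusted p = 0.999). It was the only hormone whose KO and WT mTEChi libraries did not overlap, beside 8.94% of all genes, 4.53% being higher and 4.41% lower. Ghrl differed most, with 4.22, 6.26 and 4.37 CPM in KO and a difference of 0.50 (SE 0.19, adjusted p = 0.999). The remaining 8 lay between 0.01 (Gcg, SE 0.10) and 0.15 (Ins2, SE 0.12). All 10 were above 0, beside 9681 of the 19614 genes tested, with a median of 0.11 against 0.00 over all genes tested. Without 1 of the libraries the sign of Gcg, Nts or Sst turned. Aire was at -0.14 (SE 0.07) and Fezf2 at -0.03 (SE 0.06).

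In KO mTEClo the differences were larger, as was their error. Gcg had 2.98, 2.80 and 6.52 CPM, overlapping WT in 1 library, at -0.80 (SE 0.29, adjusted p = 0.324). Sst had 24.0, 21.1 and 24.7 CPM, all above WT, at 0.54 (SE 0.24, adjusted p = 0.376), and no other hormone had groups that did not overlap, beside 19.4% of all genes, 11.5% being higher and 7.88% lower. Ghrl had 7.68, 12.7 and 7.16 CPM, at 0.53 (SE 0.24, adjusted p = 0.388). Ppy showed 158 counts in KO replicate 1 but 23 and 29 in the others, so its value of 0.80 (SE 0.65) became -0.54 without that library. Nts was at 0.76 (SE 0.42), Gip at 0.67 (SE 1.05), Ins2 at 0.80 (SE 0.82), Pyy at 0.33 (SE 0.34), Iapp at -0.12 (SE 0.10) and Cck at -0.03 (SE 0.26). The median was 0.54, beside 0.00 over all genes.

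**Figure D2:**
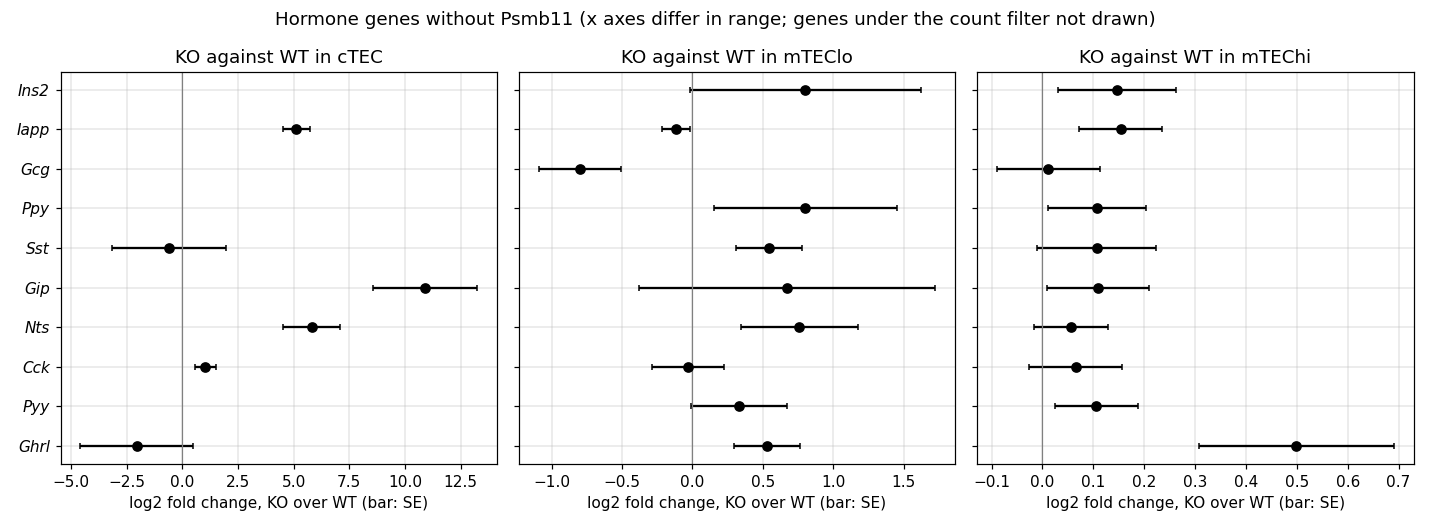
Points are log2 fold changes of KO over WT from the edgeR fit of each population and bars are standard errors; the x axes differ in range, and 4 genes under the count filter in cTEC are not drawn. The mTEChi values lie within 0.01 and 0.50, whereas cTEC values run from -2.05 for Ghrl to 10.91 for Gip with wide errors.

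In cTEC, Iapp and Cck were the hormones whose higher level in KO was shown by both libraries alike. Iapp had 14.3 and 13.2 CPM in KO against 0.537 and 0.261 in WT, or 1063 and 942 counts against 48 and 24. The log2 fold change was 5.13 (SE 0.61) with an adjusted p of 0.0687, the smallest of this comparison and the same as that of Hdc. No gene of the 16423 tested passed, so percent passing was 0 for hormones and for all genes, while 2104 genes had an unadjusted p under 0.05, among them Iapp, Gip and Nts. With library weights, 1.1% of genes passed, and Iapp (adjusted p = 0.00869) and Nts (0.02003) were among them. DESeq2 called Iapp, Gip and Nts among 821 genes, or 5% of those tested, and the same 3 passed without the count filter, where 2.06% of genes did. In the fit with a spread shared by all 16 libraries, 8 hormones passed (every one but Sst and Ghrl), where 23.4% of all genes did. Of these hormones, Ins2, Gcg, Ppy and Pyy were under the count filter in cTEC and were tested through their mTEC counts. Their KO cTEC counts lay in replicate 1 alone. In fits that left out 1 library, Iapp lay between 4.72 and 5.69. Such a fit leaves a lone library in that genotype, which is taken to vary as the other group does.

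Nts and Cck were also higher in both KO libraries than in both WT libraries. Nts had 12.0 and 3.05 CPM in KO against 0.224 and 0.0436 in WT, a difference of 5.80 (SE 1.28, adjusted p = 0.156). The KO libraries differed 3.93-fold from each other, and both were above every mTEClo library. When a library was left out, Nts ranged from 4.58 to 7.33, with a lone library in that genotype. Cck had 9.44 and 11.2 CPM against 4.23 and 6.03, a difference of 1.03 (SE 0.47, adjusted p = 0.427), and its KO libraries agreed within 1.19-fold. With Gip there were 4 hormones whose KO libraries were all above WT and none below, beside 45.2% of all genes tested that did not overlap, 21% above and 24.2% below.

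Gip and Ghrl each stood in 1 cTEC library at a level above mTEChi. Gip had 3232 counts (45.4 CPM) in KO replicate 2, 61 counts (0.818 CPM) in KO replicate 1, and 2 and 0 counts in WT. The level in KO replicate 2 was 240% of the WT mTEChi mean, and the 12 medullary markers there ran from 1.54% (Cd86) to 141% (Ccl22) of theirs. The pooled KO to WT ratio was 2050 (95% counting interval 566 to 16900), and the fit gave 10.91 (SE 2.33, adjusted p = 0.152), a value that depends on the handling of the 0. Without KO replicate 2 the fitted value was 6.02, and without KO replicate 1 it was 11.89, each with a lone KO library. Ghrl had 1208 counts (13.2 CPM) in WT replicate 2, which is 378% of the WT mTEChi mean, but 3 in WT replicate 1, 248 in KO replicate 1 and 0 in KO replicate 2. Its difference was -2.05 (SE 2.52, adjusted p = 0.820), and 5.57 without WT replicate 2.

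The remaining 5 hormones were read in at most 1 library of each genotype at over 7 counts. Ins2 had 257 counts (3.45 CPM) in KO replicate 1 and 0 in the other 3 cTEC libraries, at least 106-fold more over the KO group than over WT. Gcg had 220 counts in KO replicate 1, 7 in WT replicate 1 and 0 in the others. Pyy had 192 counts in KO replicate 1, 6 and 3 in WT and 0 in KO replicate 2, and Ppy 24 counts in KO replicate 1 and 0 elsewhere. None of these 4 passed the count filter. Sst was in the first library of both genotypes, with 240 counts in KO and 430 in WT, and had 0 and 3 in the second, giving -0.59 (SE 2.57, adjusted p = 0.970). A count of 0 allows up to 0.0421 CPM in KO replicate 2 and 0.0336 and 0.0327 CPM in the WT libraries.

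**Figure D3:**
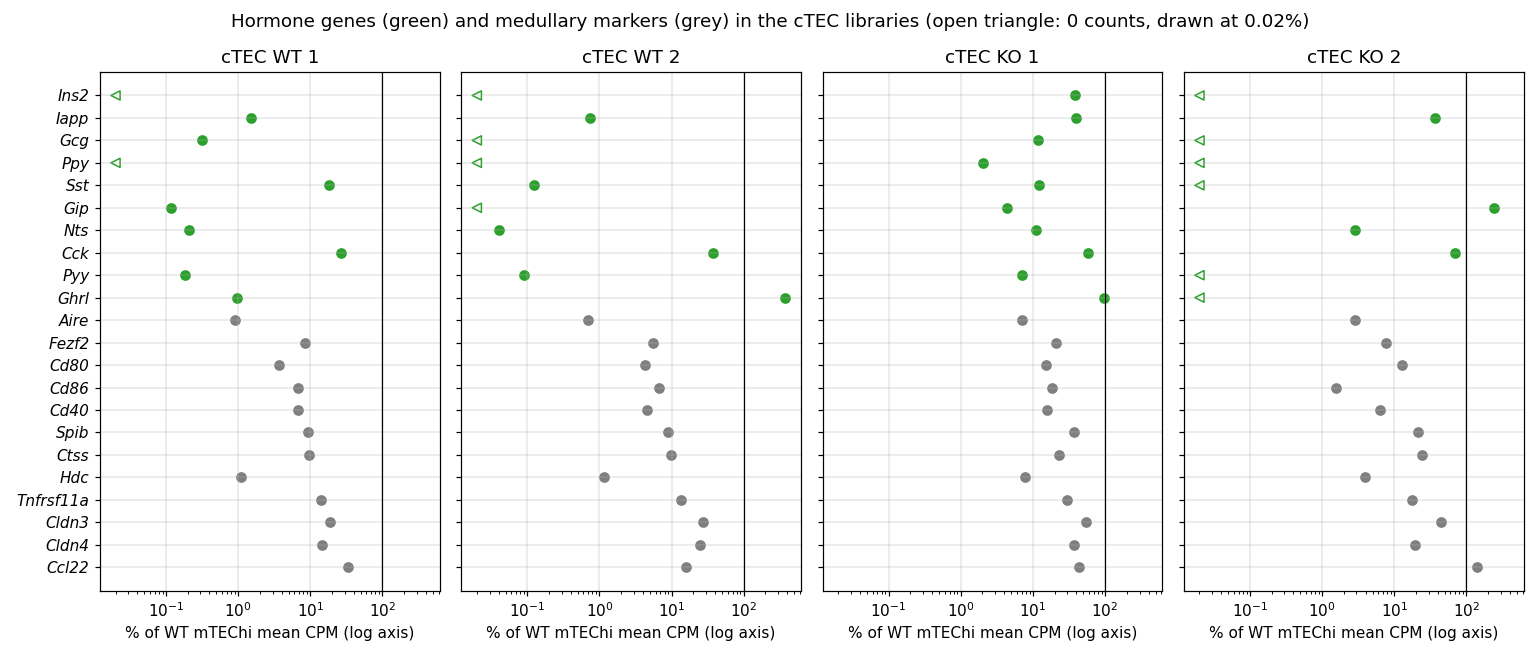
Each panel is 1 cTEC library; points give a gene's CPM as a percentage of its WT mTEChi mean on a log axis, hormones in green and medullary markers in grey, with open triangles for 0 counts. Hormones spread from 0 counts to 240% (Gip, KO replicate 2) and 378% (Ghrl, WT replicate 2), and in KO replicate 2 medullary markers spread from 1.54% (Cd86) to 141% (Ccl22).

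Medullary markers were read in the same cTEC libraries. In KO cTEC replicates 1 and 2, Aire stood at 7.05% and 2.90% of the WT mTEChi mean, against 0.901% and 0.695% in WT, and Fezf2 at 20.7% and 7.59% against 8.35% and 5.55%. In the same libraries Iapp stood at 40.1% and 37.2%, Cck at 58.7% and 69.8%, Nts at 11.2% and 2.84%, and Ins2 at 38.7% and 0%. The hormones of KO replicate 2 spanned 0% to 240% of their WT mTEChi means. Of the 12 medullary markers all had a log2 fold change above 0 in KO cTEC (median 1.21), beside 8328 of all 16423 genes tested. Of these markers 0 passed, or 5 with library weights, where 1.1% of all genes did. The smallest p were those of Hdc at 2.38 (SE 0.32, adjusted p = 0.0687) and Spib at 1.67 (SE 0.24, adjusted p = 0.0760). Aire was at 2.64 (SE 0.39, adjusted p = 0.0807) and Fezf2 at 1.03 (SE 0.42, adjusted p = 0.378). The sum of 10 cortical markers was 4310 to 5233 CPM in KO and 6582 to 7806 in WT, 0 of 10 being above 0, with Kitl at -0.88 (SE 0.13, adjusted p = 0.0807) and Ly75 at -1.03 (SE 0.16, adjusted p = 0.0855). The part of these markers in the hormone levels was not tested.

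Markers of other cells were read beside them. The sum of 4 tuft cell markers was 647 to 1018 CPM in KO cTEC and 329 to 390 in WT, with Avil at 1.39 (SE 0.22) and Trpm5 at 1.46 (SE 0.24), both at an adjusted p of 0.0855. The 4 B cell markers summed to 11.9 to 12.0 CPM in KO and 2.08 to 4.05 in WT, with Cd79a and Ms4a1 at 0 in WT replicate 1. The dendritic cell and macrophage markers summed to 62.1 to 95.9 and 25.4 to 55.0 CPM, with Siglech at 0 in all but KO replicate 1. Sums overlapped between genotypes for thymocyte markers (117 to 175 in KO, 94.7 to 126 in WT), fibroblast and pericyte markers (879 to 1196 and 947 to 1182) and endothelial markers (19.4 to 40.4 and 13.3 to 64.3, with Kdr at 0 in KO replicate 2). Parathyroid markers summed to 3.29 and 51.5 CPM in the KO libraries and 4.62 to 6.32 in WT, with Pth at 0 in the second library of each genotype and Gcm2 at 0 in all but KO replicate 1. None of these lists had a member past the threshold in cTEC, where no gene passed, and their part in the hormone levels was not tested.

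Other endocrine genes gave no passing call in cTEC either. Of all 16423 genes tested there, 8328 had a log2 fold change above 0. Of the other peptide hormones, 13 of 21 were tested and 10 were above 0, with Grp at 1.26 (SE 0.26, adjusted p = 0.145) and Insl5, a gut hormone of the relaxin family with 20 and 116 counts in WT, at 0 in both KO libraries (adjusted p = 0.416). Of the processing and granule genes, 7 of 9 tested were above 0, with the carboxypeptidase gene Cpe at -1.02 (SE 0.23, adjusted p = 0.166) and Scg5 at 1.31 (SE 0.40, adjusted p = 0.267). Of the receptors, 10 of 11 tested were above 0, and the somatostatin receptor gene Sstr3 had 267 and 263 counts in KO against 10 and 28 in WT (adjusted p = 0.295). Sstr5 had 53 and 198 counts in KO and 0 in both WT libraries (adjusted p = 0.266). Of the transcription factors, 4 of 9 tested were above 0, with Insm1 at 2.13 (SE 0.33, adjusted p = 0.0855, and 0.00292 with library weights).

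The difference between the KO effect in cTEC and its mean over mTEClo and mTEChi, fitted with a spread shared by 16 libraries, passed for 6 of 10 hormones, all positive. In this test 16.8% of 20126 genes passed, 9.57% being positive and 7.2% negative. Of the 6, Ins2, Gcg and Pyy were under the count filter in cTEC. They entered this test through a filter over all 16 libraries, which their mTEC counts met. The value of Ins2 includes a cTEC effect fitted against 0 counts in WT. The values were 5.09 for Iapp (SE 0.25, adjusted p = 1.28e-07), 5.37 for Nts (SE 0.78, adjusted p = 4.91e-04) and 10.55 for Gip (SE 2.14, adjusted p = 0.00484). These 3 passed without any 1 of the 16 libraries. Ins2 at 9.91 (SE 2.73, adjusted p = 0.0268), Gcg at 5.55 (SE 1.55, adjusted p = 0.0264) and Pyy at 4.39 (SE 1.40, adjusted p = 0.0464) rested on KO cTEC replicate 1, without which they were -0.49, -4.60 and -5.55 (adjusted p = 1.00, 0.431 and 0.231). Ins2 and Gcg were also lost without WT cTEC replicate 1 (adjusted p = 0.101 and 0.0624) or replicate 2 (0.104 and 0.129), and Pyy without any library but KO cTEC replicate 2. With library weights the 1.28% of genes that passed included Iapp (adjusted p = 0.00886) and Nts (0.0301) and no other hormone. The spread was larger in cTEC than in mTEC, so a spread shared by 16 libraries understates the error of effects in cTEC. For KO against WT in cTEC, the shared fit called 23.4% of genes, where the fit of cTEC alone called 0%.

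How even single libraries were separated the populations more than the genotypes. In mTEChi, the highest library was within 2-fold of the lowest for 10 of 10 hormones in WT and in KO, beside 98.7% and 99% of all genes with a group mean of at least 1 CPM. In mTEClo this held for 4 of 10 in WT (Iapp, Gcg, Cck and Ghrl) and 5 of 10 in KO (Iapp, Sst, Nts, Pyy and Ghrl), beside 98.7% and 97.8% of all such genes. Of the mTEClo hormones, 4 in WT and 3 in KO had group means under 1 CPM, so that among those above it the counts were 4 of 6 and 5 of 7. In cTEC it held for Cck alone in WT and for Iapp and Cck in KO, beside 95.7% and 80.3% of genes. In cTEC, 7 hormones in WT and 1 in KO had group means under 1 CPM, so that among those above it the counts were 1 of 3 and 2 of 9.

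The share of a group's summed CPM that fell in its highest library tells the same in other units. With 3 libraries an even gene gives 33.3% and with 2 libraries 50%. Medians are over hormones and genes with a group mean of at least 1 CPM. Over all 10 hormones the median was 35.8% in WT and 37.1% in KO mTEChi, against 35.5% and 35.6% over all genes. It was 40.1% over 6 hormones in WT and 44.9% over 7 in KO mTEClo, against 35.3% and 36%. In cTEC it was 99.3% over 3 hormones in WT (Sst, Cck and Ghrl) and 100% over 9 in KO, against 53.2% and 56.5%. Counting hormones at any level, 4 in WT and 7 in KO had over 90% of their summed CPM in 1 library, among them Gcg and Gip in WT with 7 and 2 counts in all. Iapp in KO cTEC was an exception at 51.9%, a share that 16.7% of all genes undercut.

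**Figure D4:**
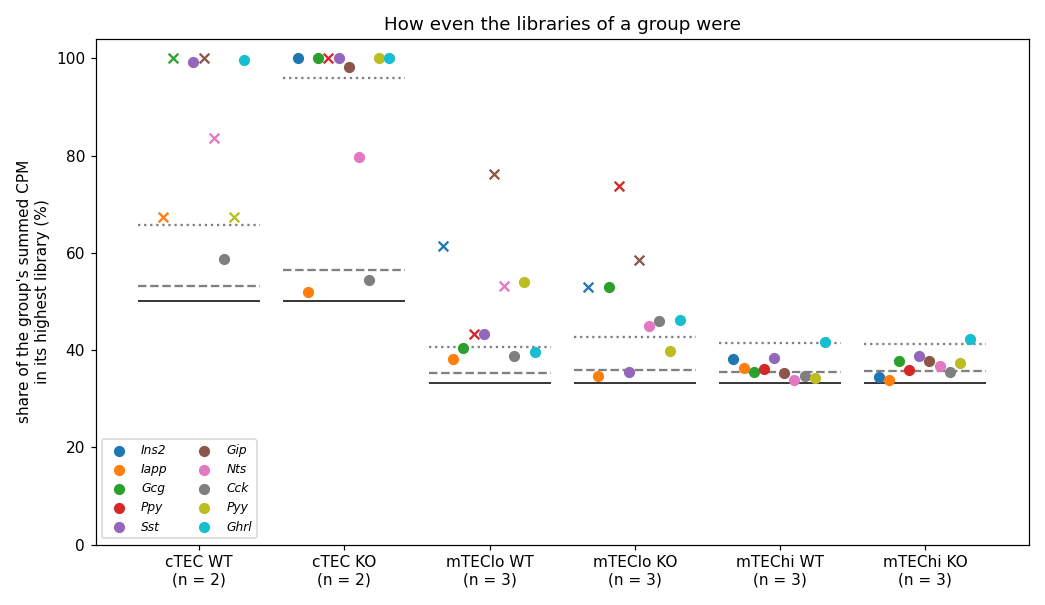
For each group, the y axis gives the share of a hormone's summed CPM in the highest library; circles have a group mean of at least 1 CPM and crosses less, solid lines mark the even share, dashed lines the median and dotted lines the 95th percentile over all genes. The mTEChi points lie at 33.9% to 42.2%, and most cTEC points lie near 100%.

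Low levels scatter more in any count data, and the fitted coefficient of variation beyond counting error gives each gene beside the trend at its own abundance. In mTEChi the hormones lay at 0.066 (Nts) to 0.165 (Ghrl), with trend values of 0.066 and 0.145. In mTEClo all 10 were above the trend, from Iapp at 0.0923 (trend 0.0826) and Cck at 0.229 (trend 0.211) to Sst at 0.205 (trend 0.103) and Gip at 0.754 (trend 0.419). In cTEC the 6 tested were divided: Iapp at 0.451 (trend 0.502) and Cck at 0.417 (trend 0.478) were below the trend, Nts at 0.801 (trend 0.775) was near it, and Sst at 1.65 (trend 1.09), Ghrl at 1.55 (trend 0.730) and Gip at 0.929 (trend 0.347) were above.

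For each hormone, the 3 genes with the most similar profile were found by the root mean square difference of centred log2(CPM + 1) over 16 libraries, among 14239 genes. The closest matches were for Ins2, at 0.172 from 4930520O04Rik, followed by the kallikrein gene Klk1b22 (0.184) and the steroid hydroxylase gene Cyp17a1 (0.192). Nts lay nearest the histidine decarboxylase gene Hdc (0.255) and the casein gene Csn2 (0.282), then Cilp (0.382). Ppy lay nearest the tyrosine hydroxylase gene Th (0.234), then the lens gene Mip (0.253) and Obp2a (0.254). Pyy lay nearest Car4 (0.214), Atp8b4 (0.224) and Utf1 (0.295), Cck nearest Cspg4 (0.203), Slc16a9 (0.224) and Olfm1 (0.247), and Gcg nearest Dsg1b (0.271), Abcc8 (0.281) and Crnn (0.358). Iapp, which was alike in both medullary populations, lay 0.333 from Ly6g6c, 0.452 from Cacna1h and 0.511 from Gm94. The largest distances were those of Sst, Gip and Ghrl: Sst lay 0.537 from Ptprv, 0.540 from Card14 and 0.557 from Ugt2b34, Gip 0.601 from Mucl1, 0.753 from Mylk3 and 0.769 from Bhlhe23, and Ghrl 0.453 from Cd36, 0.608 from Cd93 and 0.617 from Sox18.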

How the data were processed

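The authors deposited raw counts per gene made with HTSeq 0.5.4p1, and RPKM values per gene, on mm10, after CASAVA 1.8.2, per the submitters' processing notes; the aligner and the annotation are not given in the sources used here. The HTSeq entries that name no gene were left out; of all reads listed, 13.7% to 30.4% had no feature and 0.541% to 0.887% were ambiguous. Counts were tested with edgeR 4.0.16 (quasi-likelihood, TMM, filterByExpr, R 4.3.3) within the libraries of each comparison, Benjamini-Hochberg adjusted across each whole table, at a threshold of 0.05; the difference of KO effects used 1 fit of 16 libraries. Standard errors are the log2 fold change divided by the root of the F statistic. RPKM values, as the authors deposited them, were used for levels between genes only. Pooled ratios have 95% counting intervals, and a group at 0 was set to 3 counts. Alternatives were RLE size factors, no count filter, DESeq2 1.42.0, limma-voom 3.58.1 with a weight per library, 1 shared edgeR fit, a replicate block, and leaving out each library. For evenness, deposited RPKM and unscaled CPM were the alternatives. The tests were also run on simulated counts. These had 1 spread per gene for all groups, so they cannot show the effect of the larger spread in cTEC. The 10 members and the 14 lists, 140 genes in all, were chosen with earlier results of these data known. All members are named; of each other list, up to 3 genes past the threshold with the smallest p, or else up to 2, and Aire, Fezf2 and Psmb11, are named in the comparisons described, together with genes at 0 or singled out after their values were seen (Ins1, Sstr5 and the markers at 0). A gene that this rule names among the transcription factors is not reported here. Genes most like a member were sought among those with a group mean of at least 5 CPM. Sequences are from RefSeq, GRCm38.p6, and overlapping genes from GENCODE M21.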

Additional observations from a re-analysis of the deposited data

Results flagged for a closer look

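For 6 hormones the KO effect in cTEC differed from the mean KO effect in mTEClo and mTEChi by a test of the difference itself, on the log2 scale and with adjusted p-values from the edgeR fit of 16 libraries: Ins2 by 9.91 (adjusted p = 0.0268), Iapp by 5.09 (adjusted p = 1.28e-07), Gcg by 5.55 (adjusted p = 0.0264), Gip by 10.6 (adjusted p = 0.00484), Nts by 5.37 (adjusted p = 4.91e-04) and Pyy by 4.39 (adjusted p = 0.0464). These adjusted p-values rest on 1 spread shared by all libraries. The common coefficient of variation beyond counting error was 0.652 in cTEC, 0.131 in mTEClo and 0.113 in mTEChi. The p-values can therefore be too small for effects in cTEC. Iapp and Nts were higher in both KO cTEC libraries than in both WT libraries and passed with library weights. Gip was higher in both KO libraries too, but 98.2% of its summed KO CPM lay in replicate 2, and it did not pass with library weights (adjusted p = 0.245). Ins2, Gcg and Pyy had all their KO cTEC counts in replicate 1, and without that library their values were -0.49, -4.60 and -5.55. In cTEC alone these genes were under the count filter, and they entered this fit through their mTEC counts. The 9.91 of Ins2 includes a cTEC effect fitted against 0 counts in WT, where the counts give at least 106-fold.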

How the results depend on the processing

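Of 468 values recomputed under settings other than leaving out a library, 403 kept their direction and their side of the threshold or stayed close to the main value, and of 550 recomputed without 1 library, 463 did. In cTEC, the genes past the threshold numbered 0 in the main test, 383 with no count filter, 821 with DESeq2, 221 with library weights, 4700 with the shared fit, 718 with the replicate block and 167 to 3501 without 1 library; the hormones among them numbered 3, 3, 2, 8, 3 and 2 to 3. In KO against WT mTEClo the count of 1 gene became 21 with no count filter, 318 with DESeq2, 61 with library weights, 0 with the shared fit and 1 to 2 without 1 library, and in mTEChi 7 with DESeq2, 3 with library weights, 0 with the shared fit and 1 to 2 without 1 library. Between WT mTEChi and mTEClo, the 10 hormones became 6 with the shared fit and 8 to 10 without 1 library; between WT mTEClo and cTEC, the 5 became 5 to 8. For the difference of KO effects, 3376 genes became 257 and 6 hormones became 2 with library weights, and without 1 library they were 2213 to 8111 and 3 to 7. The hormones within 2-fold in WT cTEC numbered 1 by CPM, 2 by RPKM and 3 by unscaled CPM.

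Some directions turned. With library weights, KO against WT gave 0.0315 for Cck in mTEClo and -0.0074 for Gcg in mTEChi. WT mTEClo against WT cTEC gave Ghrl at 2.93 with library weights and 1.81 with the replicate block, and WT mTEChi against WT cTEC gave it at 2.21 and 1.79. Without 1 library, Ghrl ranged from -1.14 to 7.46 and from -1.91 to 6.65 in these. The KO effect in cTEC then ranged from -10.62 to 5.49 for Sst and from -12.13 to 5.57 for Ghrl. In mTEClo it ranged from -0.32 to 0.18 for Cck, -0.54 to 1.21 for Ppy, -0.03 to 2.09 for Gip and -0.20 to 0.0082 for Iapp. In mTEChi it ranged from -0.0868 to 0.13 for Gcg, -0.018 to 0.11 for Nts and -0.0206 to 0.22 for Sst. The difference of KO effects ranged from -0.49 to 10.93 for Ins2, -4.60 to 10.56 for Gcg, -0.47 to 7.53 for Ppy, -5.55 to 5.44 for Pyy, -11.23 to 5.25 for Sst and -12.87 to 5.06 for Ghrl. The causes were not tested.

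Replicate numbers did not pair the libraries throughout. Deviations of same-numbered KO and WT libraries correlated at -0.013 in cTEC, 0.223, 0.023 and -0.131 in mTEClo and 0.222, -0.033 and -0.027 in mTEChi over 16059 genes. Only the first replicates of mTEClo and mTEChi stood clearly above 0, and KO replicate 2 with WT replicate 3 gave as much, 0.223 and 0.225. A link between the first replicates was not tested. Fits with the number as a replicate block therefore stand here only, and with it Iapp, Gip and Nts passed in cTEC, beside 4.37% of genes. With 2 cTEC libraries per genotype, a fit without 1 of them takes the lone library to vary as the other group does. Depth limits Ins2 and Gip in mTEClo, at 0 to 28 counts a library, and does not limit the hormones in mTEChi.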

Other observations

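Another hormone outside the 10, Pth, the parathyroid hormone gene, was also uneven in cTEC: it had 2776 counts in KO replicate 1, 120 in WT replicate 1 and 0 in the second library of both genotypes. In mTEClo it had 3198 to 11512 counts in every library and fell in WT mTEChi by 3.36 (SE 0.36, adjusted p = 3.70e-06, edgeR quasi-likelihood test). Neurog3, which encodes the factor that starts endocrine differentiation in the pancreas and gut, had 99 counts in KO cTEC replicate 1 and 0 in the other 3 cTEC libraries, with 113 to 190 in each mTEClo library. Both were chosen after their values were seen.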
